A study of Mus musculus with 2 samples.

Results

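Guanylate-binding proteins (GBPs) and immunity-related GTPases (IRGs) are large GTPases that cells make after exposure to interferons, above all interferon gamma. The genes examined were 8 GBP genes (Gbp2, Gbp3, Gbp4, Gbp5, Gbp6, Gbp7, Gbp8 and Gbp9) and 2 IRG genes (Igtp and Irgm1). They were taken as a list of GENCODE M21 symbols, and all 10 were found among 55536 annotated genes. The RNA came from regulatory T cells (Treg), the CD4+ T cells that express Foxp3 and restrain immune responses. The cells were primary cells of 1 male mouse sample aged 9 weeks, with no treatment, engineered allele or method of isolation named in the labels. Polyadenylated RNA was sequenced in 2 libraries, technical replicates of biological replicate 1, so there is no second condition to compare. All SDs and p-values below therefore concern the 2 technical libraries and carry no information on differences between animals.

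In cells infected by vacuole-dwelling microbes such as Toxoplasma gondii, GBPs and IRGs assemble on the vacuole membrane and help to break it down. Induction runs from interferon gamma through its receptor (Ifngr1 and Ifngr2) and the kinases Jak1 and Jak2 to transcription factors, among them Irf1. GAS and ISRE letters are short DNA patterns through which interferon signals are known to reach their target genes, and interferon regulatory factors such as Irf1 bind ISRE letters. Some GBPs, among them Gbp2 and Gbp5, carry a lipid at their C-terminal end that attaches them to membranes. Igtp and Irgm1 belong to the IRG subgroup that sits on the cell's own membranes and keeps the other IRGs inactive there. In CD4+ T cells Irgm1 is known from mouse knockouts for its part in survival under interferon gamma.

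The libraries held 34697128 (library 1) and 32049199 (library 2) estimated counts over annotated genes. Levels are given as TPM, which corrects counts for transcript length and scales them to a fixed total per library. Detection was set at a minimum of 1 TPM in each library, which 13275 genes (23.9%) and 10583 of 22028 protein-coding genes reached. The Treg label was checked against its markers: Foxp3 had 108 TPM in library 1 and 111 TPM in library 2, and 5 of 5 Treg and 6 of 6 pan-T markers were detected. Markers of other cells were mostly low but not all absent, and Cd79b of the B cell list was near the median of detected protein-coding genes. Of 7 macrophage and monocyte markers 3 were detected, with sums over the list of 25.2 TPM in library 1 and 17.9 TPM in library 2, with Lyz2 highest and Adgre1, Fcgr1 and Itgam among those below detection. Of 6 dendritic cell markers 2 were detected (H2-Ab1 highest), of 5 B cell markers 4 (Cd79b highest), of 4 NK cell markers 2 (Klrb1c highest, Ncr1 at 0) and of 2 CD8 T cell markers 2 (Cd8b1 highest). Of 4 neutrophil markers 0 were detected, with sums of 0.29 TPM in library 1 and 6.21 TPM in library 2, most of it S100a8, and of 6 endothelial and stromal markers 0. GBPs and IRGs are also expressed by macrophages and dendritic cells, and the part of these or other cells in the levels below was not tested. In RNA from many cells, more cells of a type and more RNA per cell cannot be told apart.

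All 10 genes were detected. Their median was 101 TPM (mean of both libraries), against 31.1 TPM over the detected protein-coding genes, and 9 of 10 lay above that value. Igtp was the highest, with 305 TPM in library 1 and 261 TPM in library 2, a mean of 283 ± 31.1 TPM (SD, n = 2). Gbp5, whose product has been linked to inflammasome assembly in macrophages, was the lowest, with 30.6 TPM in library 1 and 28.1 TPM in library 2. The levels thus spanned 9.66-fold and ran from percentile 48.4 (Gbp5) to 95.4 (Igtp) of the detected protein-coding genes.

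The IRG genes, both on chromosome 11 (mm10; Igtp at chr11:58199556-58207591, plus strand, and Irgm1 at chr11:48861968-48871683, minus strand), stood at the top and in the middle of this order. Irgm1 had 107 TPM in library 1 and 93.3 TPM in library 2, so that Igtp was higher in either library. Summed, the 2 IRG genes reached 412 TPM in library 1 and 355 TPM in library 2, and the 8 GBP genes reached 839 TPM in library 1 and 785 TPM in library 2.

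The minus strand of chromosome 5 holds Gbp8, Gbp9, Gbp4 and Gbp6, between bases 105014150 and 105293698. Among these Gbp4 was the highest with 181 TPM in library 1 and 167 TPM in library 2. Gbp6 had 152 TPM in library 1 and 147 TPM in library 2. Gbp9 had 107 TPM in library 1 and 96.8 TPM in library 2. Gbp8, the lowest of these 4, had 77.5 TPM in library 1 and 73.1 TPM in library 2, below each of the other 3 in both libraries.

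The plus strand of chromosome 3 holds Gbp5, Gbp7, Gbp3 and Gbp2, between bases 142493978 and 142638008. Among these Gbp7, whose product has been linked to autophagy proteins, led with 140 TPM in library 1 and 134 TPM in library 2. Gbp2 had 74.9 TPM in library 1 and 74.1 TPM in library 2. Gbp3 had 74.4 TPM in library 1 and 65.8 TPM in library 2. Gbp7 was above Gbp2 and Gbp3 in both libraries, and Gbp5 was below all 3.

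Neighbours in the order of means were compared by whether their difference exceeded the sum of their SDs. Gbp9 (102 ± 7.37 TPM) and Irgm1 (100.0 ± 9.46 TPM) did not differ beyond that spread, nor did Gbp8 (75.3 ± 3.17 TPM) and Gbp2 (74.5 ± 0.594 TPM), nor Gbp2 and Gbp3 (70.1 ± 6.05 TPM; SD, n = 2 each). Gbp8 was above Gbp2 in library 1 and below it in library 2. The other 6 neighbouring pairs kept their order in both libraries and differed beyond the spread. These include Igtp over Gbp4 by 1.63-fold and Gbp3 over Gbp5 by 2.39-fold. All 10 genes had a higher TPM in library 1, by 1.01-fold to 1.17-fold, as did 62.0% of all detected genes. The direction depended on the scaling. With the scaled counts used for the test between libraries below, 6 of the 10 were higher in library 1, and Gbp2, Gbp6, Gbp7 and Gbp8 were lower.

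**Figure D1:**
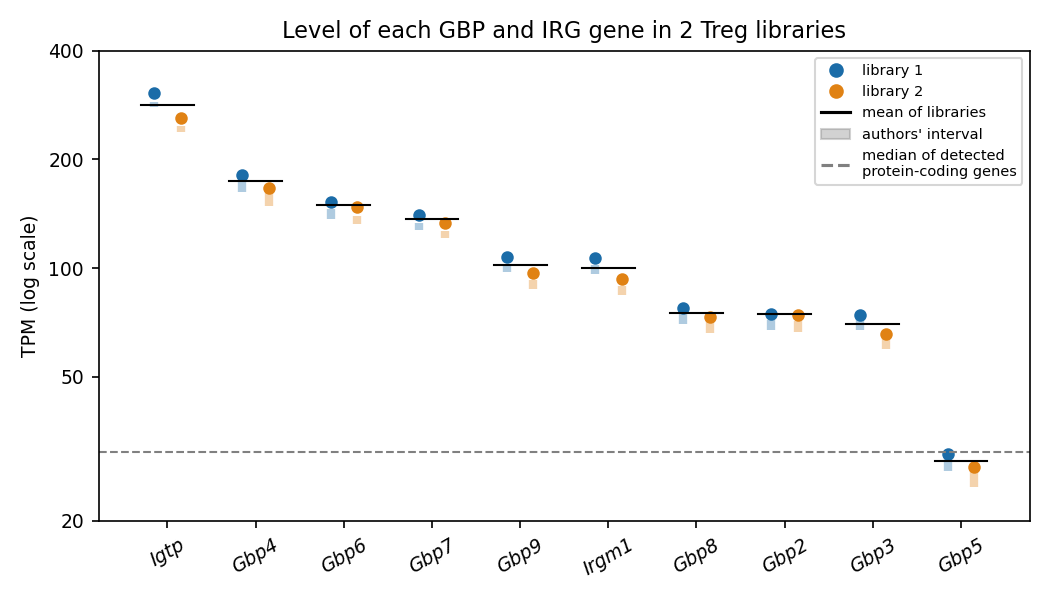
TPM of each gene on a log scale, with 1 point for library 1 (left) and library 2 (right) of each gene, the mean as a black line and the authors' credibility interval of the posterior TPM as a pale bar. The intervals centre on the posterior mean TPM, which lies below the deposited TPM for each gene; Igtp stands at the top at a mean of 283 TPM, and Gbp5 is the only gene whose mean lies below the dashed median of 31.1 TPM.

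RefSeq promoter windows, reaching from 250 bases before the start to 50 bases after it, were at hand for 6 of the 10 genes. Stretches of 120 bases from them are shown because they hold matches to letters through which interferon signals are known to reach target genes. The ISRE letters searched, on both strands, were GAAA followed by any 2 bases and GAAA again, which the other strand shows as TTTC, 2 bases and TTTC, and the GAS letters were TTCNNNGAA, which read the same on both strands. Capitals mark matches to either pattern. The stretches lie on GRCm38.p6 at chr11:58199436-58199555 (plus strand) for Igtp, chr11:48871421-48871540 (minus strand) for Irgm1, chr3:142620512-142620631 for Gbp2, chr3:142559924-142560043 for Gbp3, chr3:142496739-142496858 for Gbp5 and chr3:142530216-142530335 for Gbp7, the last 4 on the plus strand.
Igtp: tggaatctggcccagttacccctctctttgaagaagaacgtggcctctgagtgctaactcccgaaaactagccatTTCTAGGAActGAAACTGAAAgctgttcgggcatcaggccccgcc
Irgm1: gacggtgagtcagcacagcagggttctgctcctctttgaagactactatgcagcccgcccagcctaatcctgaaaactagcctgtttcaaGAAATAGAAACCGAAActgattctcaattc
Gbp2: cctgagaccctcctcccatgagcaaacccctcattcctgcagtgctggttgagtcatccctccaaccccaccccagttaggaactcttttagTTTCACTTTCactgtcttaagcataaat
Gbp3: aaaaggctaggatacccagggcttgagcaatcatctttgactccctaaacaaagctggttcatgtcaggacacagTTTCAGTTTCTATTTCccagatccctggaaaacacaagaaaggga
Gbp5: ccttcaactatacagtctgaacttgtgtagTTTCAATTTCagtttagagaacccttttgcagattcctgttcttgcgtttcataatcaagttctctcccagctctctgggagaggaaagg
Gbp7: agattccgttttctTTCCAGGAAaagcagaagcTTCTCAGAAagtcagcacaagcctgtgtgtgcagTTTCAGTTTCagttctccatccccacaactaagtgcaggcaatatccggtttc

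The 6 genes have 7 windows, of which Gbp3 has 2. ISRE letters were present in 6 of the 7, in 1 window of each gene, against 3.44% of 32851 RefSeq promoter windows. GAS letters were present in 3 of the 7 (Igtp, Gbp5 and Gbp7), against 8.30% of all windows. In Igtp the GAS letters (bases -45 to -37 from the start) stand just before the ISRE letters (-34 to -25). Gbp7 has 2 GAS matches (-106 to -98 and -87 to -79) and ISRE letters from -53 to -44. Gbp5 has its ISRE letters farther out, from -165 to -156, and 2 GAS matches outside the stretch shown (-245 to -237 and -52 to -44). Gbp3 (-45 to -36 and -39 to -30) and Irgm1 (-30 to -21 and -24 to -15) each have 2 ISRE matches that overlap by 4 bases and form 1 longer run. In Gbp3 they lie before a RefSeq start that directly follows base 142560043. Gbp3-202, the transcript with the largest mean share of Gbp3 TPM, starts farther downstream, at base 142560411. Gbp3-203, the next by mean share, starts at base 142560052. Gbp2 has 1 ISRE match (-59 to -50). GENCODE M21 starts Gbp2-201 61 bases before the RefSeq start, so the last 30 bases shown for Gbp2 lie in its first exon. The ISRE match of Gbp2 is among these bases, and so lies after the M21 start. A match describes the letters and is not evidence of binding in these cells. Genes with GAS letters were both the highest (Igtp) and the lowest (Gbp5) of the 6 in TPM.

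**Figure D2:**
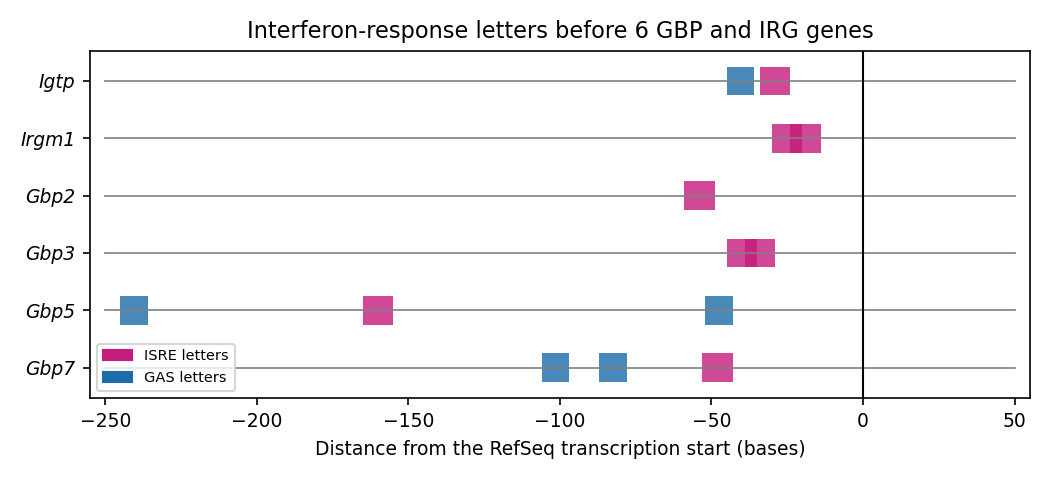
Positions of ISRE letters (magenta) and GAS letters (blue) in the RefSeq promoter windows of 6 genes, as distance in bases from the start (vertical line at 0). All ISRE matches but that of Gbp5 lie between 59 and 15 bases before the start.

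Gbp4, Gbp8 and Gbp9 overlap on the minus strand of chromosome 5 (mm10) and have a first exon in common, at chr5:105139480-105139586. In GENCODE M21, 8 transcripts begin in it: all 6 of Gbp4, Gbp8-201 and Gbp9-202. Together they had 264 TPM in library 1 and 259 TPM in library 2. Gbp8-201 made up 53.7% of Gbp8 TPM in library 1 and 63.6% in library 2. Gbp9-202 made up 38.6% of Gbp9 TPM in library 1 and 47.4% in library 2. Nearly all the rest of Gbp9 came from Gbp9-203 and Gbp9-201, which start in another exon farther downstream, at base 105110277 and 105110276 of chromosome 5. The rest of Gbp8 came mainly from Gbp8-204, annotated as a processed transcript, with 31.7 TPM in library 1 and 21.5 TPM in library 2. Reads of the common exon alone cannot be told apart between the 3 genes, so these shares rest on reads over the later exons and splice junctions.

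**Figure D3:**
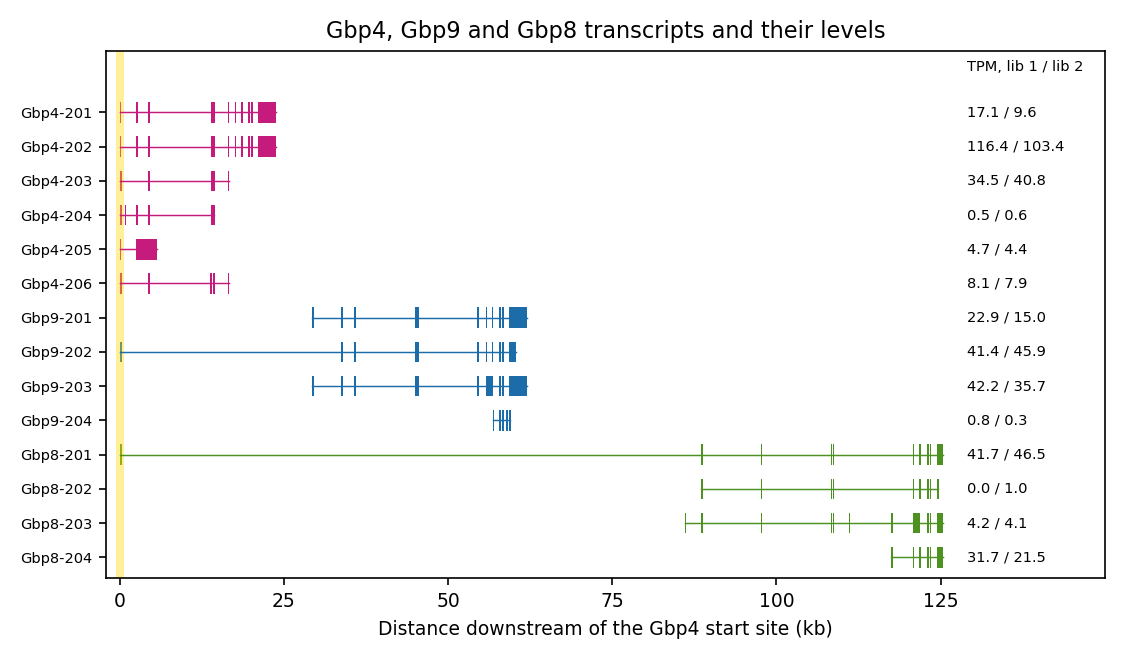
Exons (boxes, narrow ones widened to stay visible) and introns (lines) of the Gbp4, Gbp9 and Gbp8 transcripts, by distance in kb downstream of the Gbp4 start, with TPM in library 1 and library 2 at the right. The yellow band marks the common first exon, from which Gbp8-201 reaches across both other genes.

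Gbp4 was led by a transcript that is annotated as a target of nonsense-mediated decay, the pathway that removes messages with an early stop codon. Gbp4-202 had 116 TPM in library 1 and 103 TPM in library 2, a share of 63.1 ± 1.57% of the gene's TPM (SD, n = 2). The full-length coding transcript Gbp4-201 had 17.1 TPM in library 1 and 9.63 TPM in library 2, 7.60 ± 2.58%. The short coding transcript Gbp4-203, 709 bases long, took 21.7 ± 3.85% of the TPM but 4.22% of the gene's estimated counts. The first 2 transcripts differ by 29 bases at the end of exon 2, at chr5:105136810-105136838 (GRCm38, minus strand), which Gbp4-201 keeps and Gbp4-202 lacks. The segment is shown because the reading frame turns on it, and capitals mark its first 6 bases, which directly follow the end of exon 2 in Gbp4-202.
Gbp4 exon 2 segment: GTGAGTggcacgctgcctaccagccaaag

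Since 29 is not a multiple of 3, the frame changes where the segment is missing. Gbp4-201 is read for 631 codons to a stop in exon 11, and Gbp4-202 for 103 codons to a stop in exon 4. By estimated counts the share of Gbp4-202 was 82.4%. Of the 10 genes, 4 have a transcript annotated as a target of nonsense-mediated decay, and 1 of them, Gbp4, was led by it. Among 3226 detected protein-coding genes with such a transcript, 321 (9.95%) were led by it in both libraries.

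The other 9 genes were led by a protein-coding transcript in their mean TPM share. Gbp2 was almost all Gbp2-201 (99.9 ± 0.0859%). The leading shares were 78.6 ± 4.09% for Igtp-201, 75.0 ± 7.91% for Gbp5-201 and 70.5 ± 1.04% for Gbp7-202. Irgm1 was split between Irgm1-201 (52.5 ± 1.90%) and Irgm1-202 (47.3 ± 2.19%; SD, n = 2 each).

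The leader was not settled for Gbp9 and Gbp3. In Gbp9 the retained-intron transcript Gbp9-203 had 39.4% in library 1 and 36.9% in library 2, above Gbp9-202 in library 1 and below it in library 2. In Gbp3, Gbp3-202 had 45.6% in library 1 and 65.5% in library 2, and Gbp3-203 had 48.4% in library 1 and 30.7% in library 2. The authors' posterior SDs for these Gbp3 transcripts were 308 to 357 counts, on estimates between 1070 and 2329 counts. Gbp6 was led by Gbp6-201 (58.1 ± 0.586%), with 28.0 ± 0.255% in Gbp6-203, annotated for nonsense-mediated decay, and 13.9 ± 0.331% in the retained-intron transcript Gbp6-202.

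Over all 10 genes, protein-coding transcripts held 78.7 ± 0.323% of the summed TPM, transcripts annotated for nonsense-mediated decay 13.0 ± 0.0407%, retained-intron transcripts 5.94 ± 0.0245% and processed transcripts 2.44 ± 0.340% (SD, n = 2). Over the detected protein-coding genes as a whole, transcripts annotated for nonsense-mediated decay held 4.43% in library 1 and 4.48% in library 2. Most of their TPM among the GBP and IRG genes came from Gbp4 and Gbp6.

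**Figure D4:**
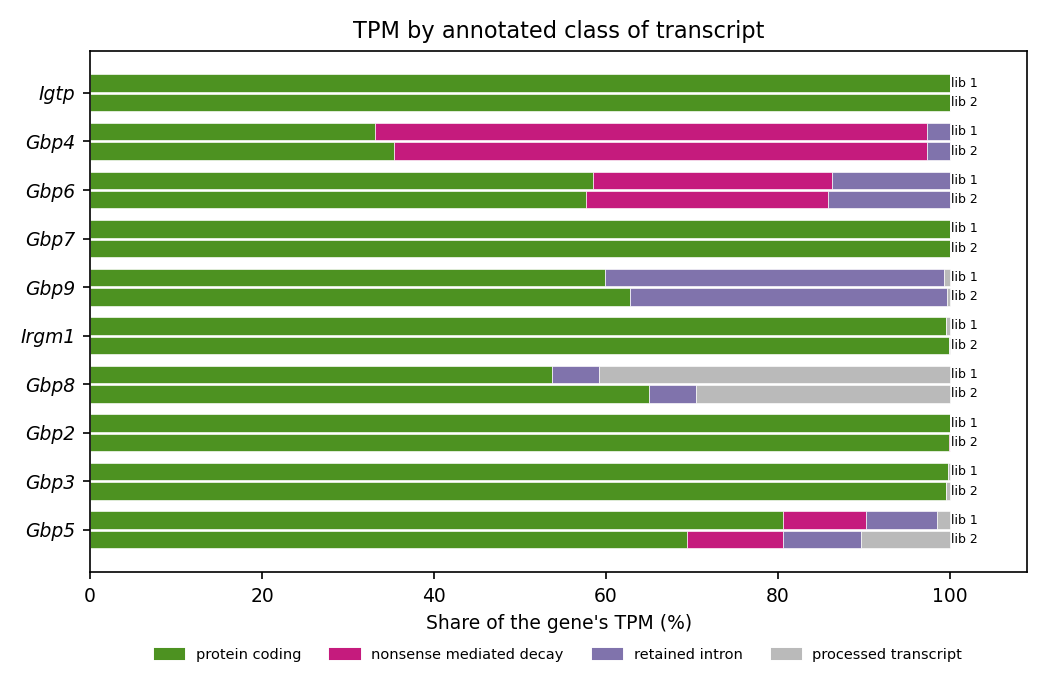
Share of each gene's TPM (percent) by annotated class of transcript, with library 1 above library 2 for each gene. Gbp4 is the only gene with most of its TPM in a nonsense-mediated decay transcript (magenta), and Gbp9 has the largest retained-intron share (purple).

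Paralogs in these families are similar enough that short reads can match several genes. Windows of 50 bases taken along each gene's transcripts were compared with all other genes. The share of windows that also occurred elsewhere ran from 0.379% in Irgm1 to 70.7% in Gbp6, with a median of 7.91%. Gbp6 shared most windows with Gm43302, a gene model that starts in the same exon and spans Gbp10, and all of the windows of Gm43302 occurred in other genes. Gm43302 had 419 estimated counts in library 1 and 0 in library 2, against authors' posterior SDs of 189 in library 1 and 77.0 in library 2. The level of Gbp6 is uncertain to the extent that reads can move between these genes.

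The other shares were 18.1% for Gbp8 and 7.78% for Gbp4 (both most often with Gbp11), 12.7% for Gbp7 (most often with the pseudogene Gm43802, listed at 0 in both libraries) and 11.8% for Igtp (all with Irgm2). They were 8.05% for Gbp9 (most often with Gbp8), 3.75% for Gbp3 (most often with Gbp7), 2.03% for Gbp2 (with Gbp2b) and 1.44% for Gbp5 (most often with 4930431F12Rik); for Irgm1 most fell on Gm37607. Irgm2 overlaps Igtp, and its transcript Irgm2-201, which starts in the first exon of Igtp, was listed at 0 in both libraries. Gm43802 lies inside Gbp7 on the same strand, with 637 bases of overlap, so the same bases are annotated under both genes. It held 10.5% of the Gbp7 windows, and Gbp3, the next gene, held 2.24%. Mir6381 lies inside Gbp2 on the other strand and was also listed at 0. At gene level the authors' posterior SD was at most 1.55% of the count for any of the 10 genes.

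The deposited tables on the older GENCODE M4 annotation give a second count for 8 of the 10 genes; Gbp5 and Gbp6 have no row there under their M21 identifiers. Both were scaled to the library's total, and the median ratio of M21 over M4 was 0.961 in library 1 and 0.927 in library 2. Over all genes with 10 or more reads in both tables the median was 0.599 in library 1 and 0.595 in library 2. The ratio rose with the M21 count. Among genes within the M21 count range of the 10 genes the median was 0.739 in library 1 and 0.715 in library 2. Among those with 10000 or more M21 counts it was 1.39 in library 1 and 1.38 in library 2. These groups were chosen by M21 count, the numerator of the ratio, so some rise follows from the choice itself. Gbp4 (1.56 in library 1 and 1.39 in library 2), Igtp (1.51 in library 1 and 1.32 in library 2) and Gbp9 (1.32 in library 1 and 1.21 in library 2) were higher on M21. Gbp3 (0.569 in library 1 and 0.550 in library 2) and Gbp2 (0.570 in library 1 and 0.574 in library 2) were lower on M21. For Gbp6, Gbp10 and Gm43302 together, M21 gave 13501 estimated counts in library 1 and 11859 in library 2, against 1206 counts in library 1 and 1111 in library 2 on M4, all in the row of Gm43302.

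The libraries were compared gene by gene to size the technical error, with an exact binomial test on estimated counts scaled by TMM factors and p-values adjusted (Benjamini-Hochberg) over 18746 genes. This test compares the 2 libraries and not conditions, and it covers counting error only, with reads taken as independent. It called 5 of the 10 genes, all higher in library 1, where 36.5% of all genes were called in either direction, 19.2% with library 1 higher and 17.2% with library 2 higher. Among 4092 genes in the same range of counts, 52.1% were called in either direction and 30.8% were called higher in library 1, so the share of GBP and IRG genes called lay near the first value and above the second. The summed macrophage and monocyte markers were also higher in library 1, 25.2 TPM against 17.9 TPM in library 2, as were the summed dendritic cell markers, 23.8 TPM against 17.3 TPM in library 2. H2-Ab1 made up most of the dendritic cell sum, with 21.15 TPM in library 1 and 15.18 TPM in library 2. The summed pan-T markers were higher in library 1 as well, 9421 TPM against 9035 TPM in library 2. Of the marker lists, only the CD8 T cell and neutrophil sums were higher in library 2. These were 25.8 TPM (CD8 T) and 0.29 TPM (neutrophil) in library 1, and 26.1 TPM and 6.21 TPM in library 2. The part of other cells in these calls was not tested.

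Igtp had 12386 counts in library 1 and 10360 in library 2, a log2 ratio of 0.14 (exact binomial test, adjusted p = 2.82e-12). Gbp4 had 13518 counts in library 1 and 11307 in library 2, also a log2 ratio of 0.14 (exact binomial test, adjusted p = 2.49e-13). Gbp9 and Irgm1 each had a log2 ratio of 0.13, and Gbp3 had 0.09 (exact binomial test, adjusted p = 8.99e-08, 0.000168 and 0.0155). Gbp5 had the same ratio as Gbp3, 0.09, from fewer counts, and did not pass (exact binomial test, adjusted p = 0.108). Gbp2 (-0.05), Gbp6 (-0.03), Gbp7 (-0.02) and Gbp8 (-0.02) did not pass either. With DESeq2 size factors in place of TMM the binomial test called 6 of the 10, adding Gbp5, where 36.6% of all genes were called. With edgeR's exact test and the common dispersion, a coefficient of variation of 15.1% between the libraries, 0 of the 10 were called and 0 had an unadjusted p under 0.05, where 2.98% of all genes were called. This dispersion was estimated from the same 2 libraries taken as 1 group, so it includes the differences under test. The 0 calls therefore cannot show that small differences are absent. With the M4 counts the exact binomial test called 0 of 8, with 0 at an unadjusted p under 0.05, where 14.4% of all genes were called, and the log2 ratio turned to -0.029 for Igtp and -0.014 for Gbp4.

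**Figure D5:**
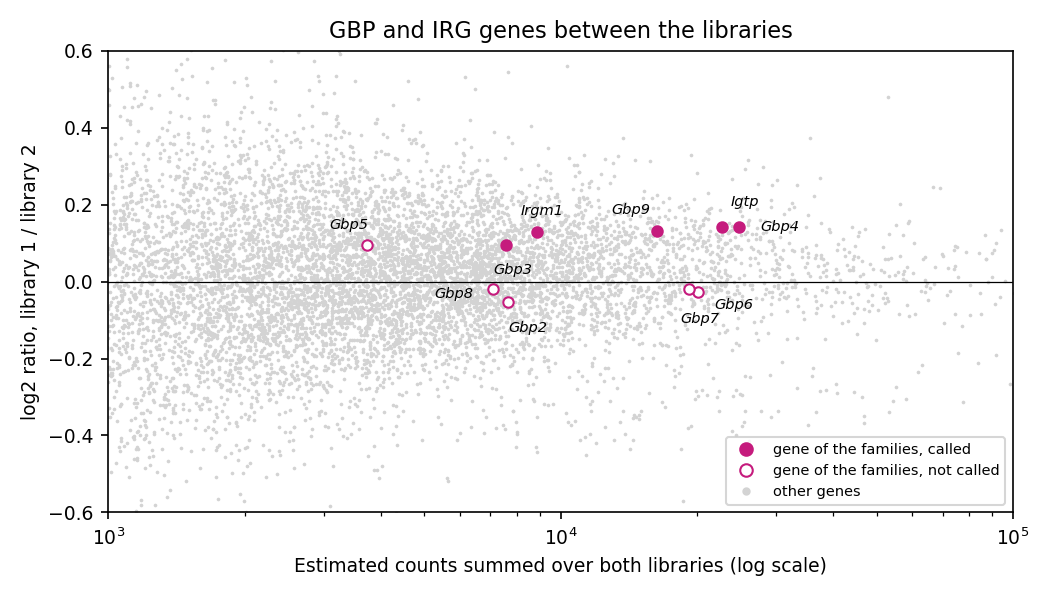
Log2 ratio of library 1 over library 2 against the estimated counts summed over both libraries (log scale), with the GBP and IRG genes in magenta (filled where called by the exact binomial test) over other genes in grey. The 10 genes lie between -0.05 and 0.14, inside the cloud of genes of like depth.

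Genes that carry interferon signals were present. Of 15 interferon receptor, kinase and transcription factor genes 14 were detected, with a median of 131 TPM, and Batf2 was not. This list is not limited to the interferon gamma signal, as it also holds Ifnar1, Ifnar2, Tyk2, Stat2 and Irf9. The receptor chains had 295 TPM in library 1 and 268 TPM in library 2 for Ifngr1, and 55.2 TPM in library 1 and 54.7 TPM in library 2 for Ifngr2. Jak1 averaged 508 ± 28.3 TPM and Jak2 70.1 ± 7.18 TPM (SD, n = 2). Irf1 had 314 TPM in library 1 and 273 TPM in library 2. Irf8 was the lowest detected one, with 30.3 ± 3.47 TPM. Between the libraries, 9 of the 14 tested were called higher in library 1, against 19.2% of all genes and 30.8% of those in the count range of the 10 GBP and IRG genes, and 0 higher in library 2, against 17.2% of all genes. They include Irf1, with a log2 ratio of 0.13 (exact binomial test, adjusted p = 8.45e-11).

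Of 9 interferon ligand genes only Ifng was detected, with 3.77 TPM in library 1 and 3.31 TPM in library 2, from 91.2 estimated counts in library 1 and 78.6 in library 2. Ifnk had 1 count in library 1 and 0 in library 2. The other 7 ligand genes (Ifne, Ifnb1, Ifnl2, Ifnl3, Ifna4, Ifna2 and Ifna1) had 0 counts in both libraries, so that up to 3 reads per library remain possible from counting error alone. All 6 genes for brakes on interferon signalling were detected, from Usp18 at 70.0 ± 6.87 TPM to Ptpn1, a phosphatase, at 136 ± 4.72 TPM (SD, n = 2). Usp18 was called higher in library 2, with a log2 ratio of -0.25 (exact binomial test, adjusted p = 2.01e-07), as 1 of the 6, and 2 were called higher in library 1, where 36.5% of all genes were called in either direction.

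Other targets of interferon gamma were detected in part. Of 13 such genes 8 were detected, from Psmb8, a subunit of the immunoproteasome, at 953 ± 8.63 TPM to the chemokine gene Cxcl10 at 6.73 ± 0.354 TPM (SD, n = 2). Nos2, Ciita, Cxcl9, Cxcl11 and Ido1 were below detection, Ido1 with 0 counts in both libraries. Among the 9 with enough counts to be tested, 2 were called higher in library 1 and 1 higher in library 2, near the shares of all genes (19.2% and 17.2%).

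Of 18 further GBP and IRG genes 16 were detected, with a median of 47.0 TPM. Ifi47 was the highest, with 364 TPM in library 1 and 348 TPM in library 2, above Igtp in both. Gbp11 was the lowest detected one, with 1.83 TPM in library 1 and 1.19 TPM in library 2, and Gm5431 and Irgc1 were below detection. Gbp10 had 63.3 TPM in library 1 and 51.2 TPM in library 2, and Irgm2 had 38.3 TPM in library 1 and 35.2 TPM in library 2. Gbp2b, the neighbour and relative of Gbp2, had 22.9 TPM in library 1 and 13.4 TPM in library 2. The binomial test called 10 of these 18 genes higher in library 1 and 1 in library 2, against 19.2% and 17.2% of all genes in these directions. Of genes in the count range of the 10 GBP and IRG genes, 30.8% were called higher in library 1, but not all of the 18 lie in that range. The median log2 ratio over the list was 0.18, against 0.09 over the 10 genes above.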

How the data were processed

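Polyadenylated RNA of 1 Treg sample was sequenced in 2 technical libraries, which form 1 group, with fragments of 100 to 300 bases per the labels. Per the file headers, the deposited gene and transcript tables on GENCODE M21 (mm10) hold estimated counts, in which the authors' model divides shared reads. They also hold TPM and FPKM, both corrected for length, the percent of each gene's TPM per transcript and posterior means and SDs per the file headers. The bounds of the authors' credibility interval are kept as a score in TPM units per the file headers. The third deposited table holds whole-number counts per gene on GENCODE M4. For the aligner and quantifier, names and versions were not given in the sources used here.

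M21 totals were 34697128 and 32049199 estimated counts and M4 totals were 9576557 and 8937887 counts in library 1 and library 2. Counts were rounded for tests, genes with a summed count under 10 were left out, and log2 ratios used a prior count of 0.5. TMM factors and the exact test came from edgeR 4.0.16, and size factors from DESeq2 1.42.0; calls needed an adjusted p under 0.05, and the tests were tested on simulated data. Names, exons and sequences came from GENCODE M21 and RefSeq (GRCm38.p6), and coordinates are 1-based. The members and lists were chosen with earlier results of these data known. The genes named were all 10 members, genes that overlap them or share most windows with them, interferon gamma pathway genes, and of each list the highest, the lowest detected and the undetected ones, or of marker lists the highest. Further genes were named after their values were seen: Foxp3, Adgre1, Fcgr1, Itgam and Ncr1. Some genes that this rule names are not reported here. Protein sequences were not analysed here. Alternatives were other detection limits and units, other scalings, no count filter, another test, M4 counts, single libraries, other windows and a shorter promoter.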

Additional observations from a re-analysis of the deposited data

How the results depend on the processing

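All 10 genes stayed detected at 0.1 or 5 TPM, by FPKM, by posterior mean TPM and in either library alone, and the median level was 95.1 to 107 TPM with single libraries. The number called between the libraries was 0 with edgeR's exact test, whose dispersion came from the same 2 libraries. It was 0 with M4 counts, and 6 with DESeq2 size factors, where Gbp5 was added. With M4 counts the log2 ratio turned to -0.029 for Igtp and -0.014 for Gbp4. The median M21 over M4 ratio was 0.991 when scaled to genes in both tables, and the median share of windows that occur elsewhere was 1.65% with 100-base windows, by construction fewer; the cause of the other changes was not tested. The number of genes led by a protein-coding transcript was 8 to 9 with single libraries and 8 by estimated counts, where Gbp9-203 led Gbp9 with 49.5%; Gbp3-203 led Gbp3 in library 1 alone. ISRE and GAS calls were the same in the 200 bases before the start. Shared reads limit the transcript shares and the level of Gbp6. The P-loop and C-terminal motif search was not run here. No paired analysis was possible because there is 1 group only, with no group to pair it with.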

Other observations

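Genes for what these GTPases act on or depend on were widely present. Of 12 genes for ATG8 conjugation and vacuole targeting, the machinery that guides GBPs and IRGs to membranes, 12 were detected. They ran from Map1lc3a at 9.17 ± 0.170 TPM to Gabarap at 332 ± 20.7 TPM (SD, n = 2). All 5 prenylation and C-terminal processing enzymes were detected, from Pggt1b at 14.7 ± 2.00 TPM to Fnta, the subunit that the main prenylating enzymes have in common, at 105 ± 17.3 TPM (SD, n = 2).

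Of 9 inflammasome genes 7 were detected, from Nlrp1b at 2.10 ± 0.679 TPM to Pycard, the adaptor also called ASC, at 252 ± 11.0 TPM (SD, n = 2). Nlrp3 and Il1b were below detection. Il1b had 1 estimated count in library 1 and 17 in library 2, and S100a8, a neutrophil marker, had 0 in library 1 and 32 in library 2; whether these counts have 1 source was not tested. Between the libraries, 6 of the 12 ATG8 genes were called higher in library 1 and 1 higher in library 2, and of 8 inflammasome genes tested 2 were called higher in library 1 and 3 higher in library 2. Over all genes 19.2% were called higher in library 1 and 17.2% higher in library 2, and over the genes in the count range of the GBP and IRG genes 30.8% were called higher in library 1.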
